A study of Mus musculus with 180 samples.

Results

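The proteasome genes described here are the 47 of 13820 genes in the table whose symbols begin with Psma to Psmg and a number, apart from Psmb11. They fell into 5 inducible subunits (Psmb8, Psmb9, Psmb10, Psme1 and Psme2), 31 constitutive subunits and 11 other genes, which encode alternative activators, an inhibitor and assembly chaperones. The choice was made by symbol, and no measured value entered it. All 47 passed the filter on low signal in all 15 tissues. Psma8, an alpha ring gene known from testis, was not analysed here.

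The proteasome is a barrel of stacked rings that degrades ubiquitin-tagged proteins, with an ATP-driven regulatory particle at its ends. Interferon-gamma and related signals lead cells to build a second form, the immunoproteasome, in which Psmb8, Psmb9 and Psmb10 take the catalytic places of Psmb5, Psmb6 and Psmb7. Psme1 and Psme2 together form PA28, a cap known from the same response. The peptides released are carried by the Tap transporter onto MHC class I molecules, and immune tissues carry much of the immunoproteasome before any infection.

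The data came from 180 bulk RNA libraries, 1 from each of 15 tissues of 12 mice. Mice 9 to 12 were B6.129S-Tnftm1Gkl/J animals, which lack tumour necrosis factor (TNF), given 5 mg/kg of lipopolysaccharide (TNFKO LPS). Mice 5 to 8 were C57BL/6J animals given the same dose of this bacterial outer-membrane component (LPS), and mice 1 to 4 were C57BL/6J animals given PBS. All were female and 6 weeks old, tissues were taken at 12 hours, and the mice were perfused with PBS and EDTA first. No TNF-deficient mice given PBS were among the samples, and what the allele or the strain background does without LPS cannot be told apart from a changed response to it. Each library was built from the poly(A) end of transcripts, and held 311128 to 2573806 recovered counts. Levels are given in the authors' signal, a value per gene scaled by library. A difference in such bulk tissue can come from fewer cells of a type or from less RNA per cell, and these cannot be told apart.

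The targeted gene was examined first. Tnf signal ranged from 10.8 to 107 in TNFKO LPS libraries, from 3.48 to 75.2 in LPS libraries and from 1.86 to 18.4 in PBS libraries. In lung it was 99.0, 107, 91.1 and 89.6 in TNFKO LPS mice, 20.9, 11.7, 20.3 and 28.7 in LPS mice, and 6.68, 8.84, 6.43 and 3.63 in PBS mice. Tnf tags were thus more frequent in the lungs of the TNF-deficient mice. A tag at the 3′ end reports RNA made from the locus and does not check which part of the gene was removed. In 38 of 45 checks of tissue marker genes in PBS mice, the labelled tissue had the highest mean, and in the other 7 it ranked 2nd or 3rd.

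The inducible subunits sit at 3 places in the genome. Psmb9 (chr17:34181987-34187764, minus strand, mm10) and Psmb8 (chr17:34197721-34201454, plus strand) flank the transporter gene Tap1 (chr17:34187553-34197225, plus strand), whose first bases overlap those of Psmb9. Psmb9, Tap1 and Psmb8 lie 1011.6, 1002.2 and 997.9 kb from Tnf. Psme1 (chr14:55578123-55581529, plus strand) and Psme2 (chr14:55587441-55591113, minus strand) are neighbours, and Psmb10 (chr8:105935735-105938444, minus strand) stands apart. These gene limits span the widest annotated transcripts (GENCODE). The 300-base windows around the starts that RefSeq gives for Psmb9, Psmb8, Psme1 and the constitutive Psmb5 are shown because the values below set these genes apart. They are RefSeq sequences of GRCm38.p6, at chr17:34187281-34187580 for Psmb9 (minus strand), chr17:34197945-34198244 for Psmb8 (plus strand), chr14:55578244-55578543 for Psme1 (plus strand) and chr14:54617946-54618245 for Psmb5 (minus strand), with motif matches in capitals. RefSeq starts Psmb9, Psmb8 and Psme1 further inside the limits given above, so their windows lie within those limits.
Psmb9: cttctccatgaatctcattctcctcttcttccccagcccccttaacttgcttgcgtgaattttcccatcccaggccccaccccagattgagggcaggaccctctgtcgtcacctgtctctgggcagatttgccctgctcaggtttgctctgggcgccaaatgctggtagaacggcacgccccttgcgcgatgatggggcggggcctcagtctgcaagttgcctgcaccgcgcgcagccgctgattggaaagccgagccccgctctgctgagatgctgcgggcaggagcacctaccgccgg
Psmb8: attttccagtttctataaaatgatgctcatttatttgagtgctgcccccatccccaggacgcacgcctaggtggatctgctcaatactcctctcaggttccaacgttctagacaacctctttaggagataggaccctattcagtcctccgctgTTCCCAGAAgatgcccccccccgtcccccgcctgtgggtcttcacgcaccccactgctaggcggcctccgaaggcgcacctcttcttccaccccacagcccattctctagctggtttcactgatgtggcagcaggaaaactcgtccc
Psme1: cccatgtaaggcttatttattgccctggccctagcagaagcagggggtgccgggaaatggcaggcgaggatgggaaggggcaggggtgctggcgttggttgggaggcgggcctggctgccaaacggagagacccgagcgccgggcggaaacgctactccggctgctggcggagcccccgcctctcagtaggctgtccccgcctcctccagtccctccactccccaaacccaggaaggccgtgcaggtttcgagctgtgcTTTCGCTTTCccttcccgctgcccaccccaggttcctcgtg
Psmb5: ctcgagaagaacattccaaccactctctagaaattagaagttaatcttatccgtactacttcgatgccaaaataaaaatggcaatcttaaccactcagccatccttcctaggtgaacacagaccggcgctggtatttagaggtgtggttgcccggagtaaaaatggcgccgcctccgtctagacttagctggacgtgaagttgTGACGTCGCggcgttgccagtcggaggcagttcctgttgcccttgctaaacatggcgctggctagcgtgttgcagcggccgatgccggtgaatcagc

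Promoter windows were found for 40 of the 47 genes and searched on both strands. The interferon-response core, a pair of GAAA units with any 2 bases between them, occurred in 3.44% of 32851 promoters, in 1 of 5 inducible genes (Psme1, as TTTCGCTTTC on the opposite strand) and in 2 of 25 constitutive genes (Psmb3 and Psmd4). The palindromic element TTCNNNGAA, of the interferon-gamma activated site type, occurred in 8.3% of promoters, in Psmb8 (TTCCCAGAA) among the inducible genes and in Psmd2 among the constitutive genes. The antioxidant-response core TGACNNNGC, a type of site that Nfe2l2 is known to bind, occurred in 12.4% of promoters. It stood in 4 of 25 constitutive promoters (Psmb5, with TGACGTCGC, and Psmb6, Psmc6 and Psmd12) and in 0 of 5 inducible ones. An NF-kappa-B consensus occurred in 8.46% of promoters, in 5 of 25 constitutive promoters (Psma6, Psma7, Psmd11, Psmd12 and Psmd13) and in 0 of 5 inducible ones. No match in the windows of Psmb9, Psmb10 and Psme2 says only that these letters are not there.

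Without LPS, the inducible subunits spanned wider ranges of tissue means than most constitutive ones. Psmb8, the inducible chymotrypsin-like subunit, averaged 231 signal in spleen and 17.3 in brain of PBS mice, a 13.3-fold range of tissue means. Psmb9 spanned 11.3-fold, with 199 in lymph node and 17.6 in brain. Psmb10 spanned 5.70-fold, with 202 in small intestine and 35.4 in kidney, so kidney and not brain was its lowest tissue. Psme1 and Psme2 were both highest in small intestine, at 146 and 120, and lowest in brain, at 21.99 and 10.3, ranges of 6.63-fold and 11.7-fold.

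Over the 31 constitutive subunits the range was 1.78-fold to 7.65-fold, with a median of 2.30-fold. The highest tissue was muscle for 22 of them. The summed signal of a PBS library ran from 1322440 to 1429250 in muscle and from 766785 to 803815 in spleen. Ranges and ranks of tissue levels depend on this scaling, for inducible subunits too, and its part was not tested. Psmb5, the constitutive chymotrypsin-like subunit, had 166 signal in muscle and 57.9 in lymph node of PBS mice. Psmb6, the caspase-like subunit, had 274 in muscle and 94.3 in bone marrow, and Psmb7, the trypsin-like subunit, had 71.0 in muscle and 9.27 in spleen. The PBS level differed between tissues for all 47 genes (limma moderated F in a joint fit, adjusted p below the 0.05 threshold used throughout), which 99.5% of all genes also did. Neighbours in the order of tissues were mostly not separated: of 14 neighbouring pairs, the libraries did not overlap in 4 for Psmb8, 3 for Psmb9, 3 for Psme2, 2 for Psme1 and 1 for Psmb10.

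**Figure D1:**
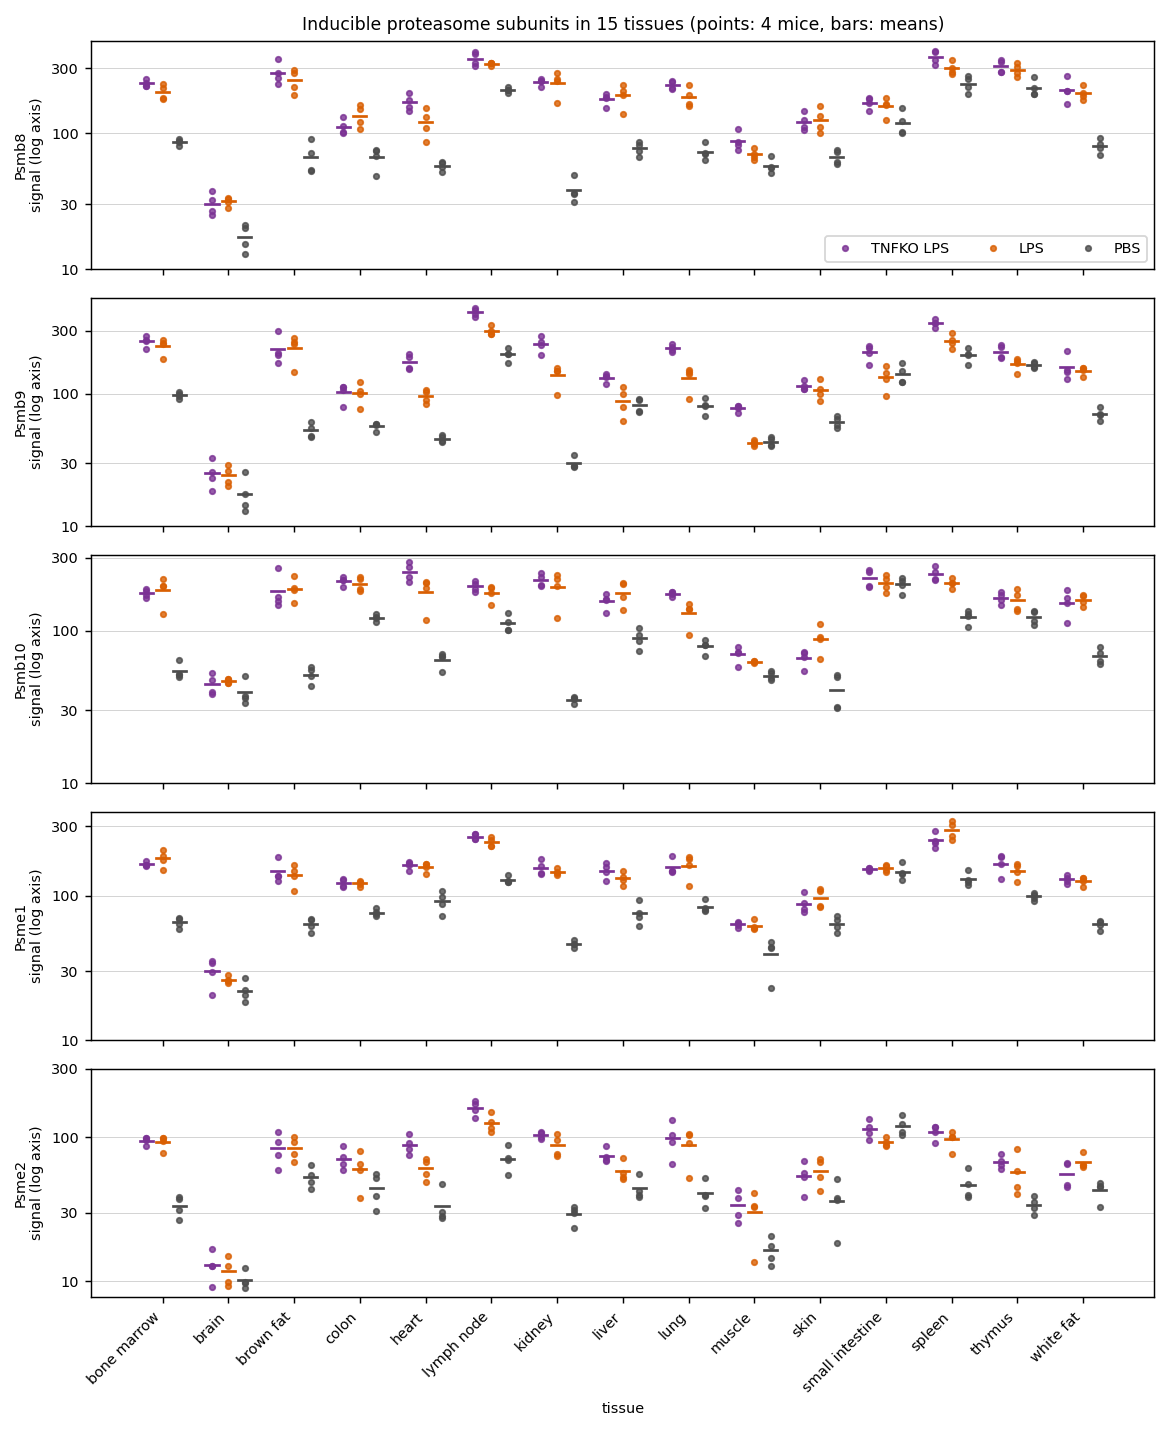
Signal of Psmb8, Psmb9, Psmb10, Psme1 and Psme2 (1 panel each, log axis) in 15 tissues, with 1 point per mouse and a bar at the mean of 4, for TNFKO LPS, LPS and PBS mice. Kidney shows a wide step between LPS and PBS mice in all 5 panels, and brain has low levels in every group.

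LPS raised the inducible subunits in most tissues. They were higher in LPS than in PBS mice in 59 of 75 tests (5 genes in 15 tissues) and lower in 1, with a median difference of 0.79 on the log2(signal + 1) scale and a range of -0.37 to 2.58 (limma, Benjamini-Hochberg adjustment over all genes of a tissue). Over all genes and tissues 9.47% of tests were called higher and 10.4% lower, and the median of all genes lay between -0.06 and 0.06 in every tissue. The 31 constitutive subunits were higher in 173 of 465 tests and lower in 2, with a median of 0.25. The 11 other genes were higher in 17 of 165 tests and lower in 8, with a median of 0.12.

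Kidney changed most. Psmb8 signal was 243, 166, 278 and 248 in LPS kidneys, against 49.6, 36.2, 31.1 and 35.6 in PBS kidneys, a log2 difference of 2.58 ± 0.14 (SE, n = 4 each; limma, adjusted p 9.3e-14). Psmb10 signal was 219, 122, 232 and 197 in LPS kidneys, against 32.8, 36.2, 36.9 and 35.6 in PBS kidneys, a difference of 2.37 (limma, adjusted p 9.1e-13). Psmb9 signal was 147, 98.6, 147 and 157 in LPS kidneys, against 34.2, 28.5, 28.0 and 28.5 in PBS kidneys, a difference of 2.15 (limma, adjusted p 1.7e-12). The lowest LPS kidney, mouse 6 for all 3 genes, was still above every PBS kidney.

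The PA28 genes rose in kidney as well. Psme1 averaged 145 ± 6.38 in LPS and 46.2 ± 2.39 in PBS kidneys (SD, n = 4 each), a difference of 1.63 (limma, adjusted p 2.2e-12). Psme2 averaged 88.2 ± 15.1 in LPS and 29.4 ± 4.13 in PBS kidneys, a difference of 1.55 (limma, adjusted p 6.1e-10). Immune cell markers were read in the same libraries. The summed signal of 10 neutrophil markers ran from 416 to 531 in LPS kidneys and from 314 to 424 in PBS kidneys, with 2 of 10 called higher. The sum of 8 monocyte and macrophage markers ran from 286 to 331 in LPS kidneys and from 287 to 327 in PBS kidneys, with 1 called higher and 2 lower. The B cell sum of 6 markers ran from 54.7 to 71.1 in LPS and from 56.5 to 68.5 in PBS kidneys, and the T cell sum of 8 from 44.7 to 57.2 in LPS and from 40.7 to 132 in PBS kidneys. Kidney's own markers Umod, Slc34a1 and Kap summed to 4455 to 6737 in LPS and 8784 to 10297 in PBS kidneys. What part these shifts had in the subunits' rise was not tested.

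Among the other tissues, Psmb8, which replaces Psmb5 at the chymotrypsin-like site, was called higher with LPS in 14 of 15 tissues, the most of the 5. Its differences ran from 0.38 in spleen to 1.86 in brown fat outside kidney, and muscle, at 0.28, was the tissue without a call (limma, adjusted p 0.29). Brain was low but moved: Psmb8 signal was 31.2, 33.0, 33.3 and 28.4 in LPS brains, against 12.9, 20.0, 15.3 and 21.0 in PBS brains, a difference of 0.85 (limma, adjusted p 0.0027), where 2.32% of all genes were called higher. The other 4 inducible subunits were not called in brain, with differences of 0.47 for Psmb9, 0.26 for Psmb10, 0.26 for Psme1 and 0.16 for Psme2.

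Psmb9, which replaces Psmb6 at the caspase-like site, was higher with LPS in 10 tissues. In brown fat it was 263, 146, 245 and 240 in LPS mice, against 46.9, 48.1, 55.2 and 61.7 in PBS mice, a difference of 2.03 (limma, adjusted p 4.4e-08). Beside this, 10 neutrophil markers summed to 789 to 943 in LPS and 568 to 639 in PBS brown fat, and Ucp1, Cidea and Adipoq to 3576 to 9985 in LPS and 8909 to 15064.5 in PBS brown fat. Muscle markers reached 7641 in LPS and 2374 in PBS brown fat, and the part of these shifts was not tested. In liver, thymus, muscle and small intestine Psmb9 was not called, with differences of 0.08, 0.02, -0.03 and -0.10. Liver is a contrast within the locus, since Psmb9 signal was 79.0, 62.4, 98.8 and 112 in LPS livers, against 74.0, 91.9, 89.2 and 72.3 in PBS livers, which overlap. Psmb8 in the same libraries was 191, 138, 226 and 206 in LPS livers, against 74.0, 86.7, 66.9 and 81.2 in PBS livers, with a difference of 1.27 and no overlap.

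Psmb10, which replaces Psmb7 at the trypsin-like site, was higher with LPS in 12 tissues. In bone marrow it was 196, 128, 195 and 219 in LPS mice, against 51.9, 64.5, 51.2 and 50.05 in PBS mice, a difference of 1.72 (limma, adjusted p 1.3e-10). In the same libraries 7 of 10 neutrophil markers were called lower and 1 higher, with sums of 17579.8 to 20511 in LPS and 22574 to 24383 in PBS marrow, a shift whose part in the result was not tested. The difference was 1.84 in brown fat and 1.44 in heart. Psmb10 in small intestine was 193, 175, 219.7 and 233 in LPS mice, against 171, 223, 200.8 and 211 in PBS mice, so the groups overlapped around an already high level.

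The PA28 subunits divided along similar lines. Psme1, the alpha subunit, was higher with LPS in 13 tissues, with the largest differences after kidney in bone marrow (1.45) and spleen (1.12). Its call in muscle (0.68, limma, adjusted p 0.012) was lost without PBS mouse 1, with a difference of 0.45 and an adjusted p of 0.094. Psme2, the beta subunit, was higher in 10 tissues. In small intestine it was lower, with 101, 88.6, 87.0 and 93.2 in LPS mice against 110, 144, 103 and 124 in PBS mice, a difference of -0.37 (limma, adjusted p 0.034). These groups did not overlap, by a margin of 101 to 103, and the call was lost without any of mice 2, 4, 6, 7 and 8. TNFKO LPS mice had 95.7, 108, 118 and 134 in the same tissue.

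The size of the LPS change depended on tissue for all 5 inducible subunits, with adjusted p from the limma moderated F of 2.5e-28 for Psmb9, 6.6e-27 for Psmb10, 6.1e-24 for Psmb8, 5.2e-15 for Psme1 and 1.1e-07 for Psme2. The same test called 65.3% of all genes and 27 of the 31 constitutive subunits. When each tissue was set against the mean of the other 14, 28 of 75 inducible tests were called, where 10.9% of all gene and tissue tests were. All 5 rose further in kidney than elsewhere, Psmb8 by 1.66, Psmb10 by 1.51, Psmb9 by 1.51, Psme2 by 0.88 and Psme1 by 0.85. All 5 changed less in small intestine, by -1.17 for Psme2, -1.004 for Psmb10, -0.91 for Psmb9, -0.80 for Psme1 and -0.67 for Psmb8. Of all genes, 16.2% were called in kidney and 11.4% in small intestine.

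Tissue by tissue, the catalytic 3 rose further in brown fat (Psmb9 by 1.37, Psmb10 by 0.94, Psmb8 by 0.90), and in bone marrow Psmb10, Psme2, Psme1 and Psmb9 did, by 0.82, 0.78, 0.66 and 0.51. They moved less in muscle (Psmb9 by -0.83, Psmb8 by -0.81, Psmb10 by -0.71) and in thymus (Psmb9 by -0.78, Psmb10 by -0.65, Psmb8 by -0.63). Thymus and spleen are tissues in which lymphocyte markers fell with LPS: 7 of 8 T cell markers were called lower in both, and 5 of 6 B cell markers in spleen. The thymus markers Rag1, Ptcra and Cd8a summed to 795 to 1125 in LPS and 1864 to 2011 in PBS mice, and what part this had in the smaller change was not tested.

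**Figure D2:**
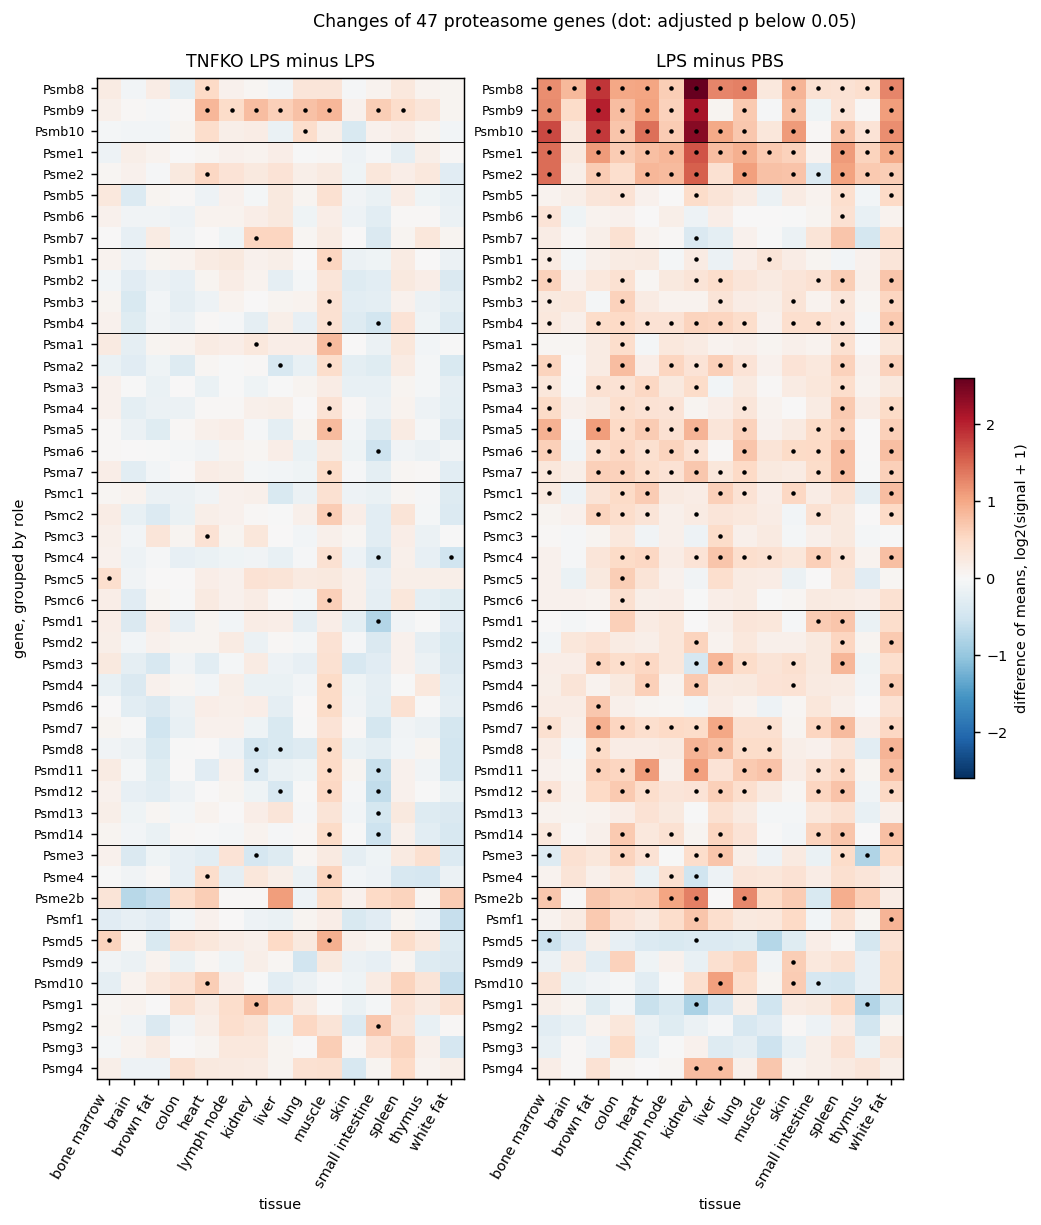
Log2 differences (colour) of the 47 proteasome genes, grouped by role, in 15 tissues for TNFKO LPS minus LPS (left) and LPS minus PBS (right), with a dot where the limma adjusted p was below 0.05. On the right the 5 inducible genes at the top hold 59 of the 75 possible higher calls, while on the left the calls gather on Psmb9 and on the muscle column.

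The constitutive proteasome rose with LPS too, by smaller amounts and in a smaller share of tests. Among the 7 alpha ring subunits, which gate the barrel, 55 of 105 tests were higher and 0 lower (median 0.34), and among the 4 structural beta subunits 28 of 60 were higher and 0 lower (median 0.27). The 6 regulatory particle ATPases, which unfold substrates, gave 25 higher and 0 lower of 90 (median 0.21). The 11 non-ATPase subunits of that particle, which include the deubiquitinase Psmd14, gave 59 higher and 1 lower of 165 (median 0.28).

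The 3 constitutive catalytic subunits stood at 6 higher and 1 lower of 45 (median 0.10). Psmb5 was higher in colon, kidney, spleen and white fat, most in white fat, with 124 ± 11.7 in LPS and 87.3 ± 12.5 in PBS mice (SD, n = 4 each; log2 difference 0.51, limma, adjusted p 0.017). Psmb6 was higher in bone marrow and spleen. Psmb7 was higher in no tissue and lower in kidney, with 25.3, 29.5, 27.1 and 21.2 in LPS mice against 32.1, 36.2, 38.1 and 29.2 in PBS mice. Those libraries overlapped, and the call (-0.38, limma, adjusted p 0.041) was lost without any of mice 1, 2, 3, 5, 8 and 12. Each of the calls for Psmb5 in colon, spleen and white fat and for Psmb6 in spleen was also lost without at least 1 mouse.

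The constitutive subunits called higher in the most tissues were Psmb4, a structural beta subunit, in 12, and Psma6 and Psma7 of the alpha ring and Psmd7, a lid partner of the deubiquitinase Psmd14, in 11 each. Psma7 averaged 392 ± 47.6 in LPS and 226 ± 33.8 in PBS spleens (difference 0.80, limma, adjusted p 1.4e-06), and Psma6 118 ± 12.6 in LPS and 67.0 ± 3.63 in PBS spleens (0.80). In the same spleens 10 neutrophil markers summed to 1108 to 2221 in LPS and 595 to 732 in PBS mice, with 6 called higher, and 8 monocyte and macrophage markers to 1279.6 to 1829.9 in LPS and 3188 to 3515 in PBS mice, with 6 called lower and 2 higher. Together with the lymphocyte markers given above, these moved beside the spleen subunits, and their part was not tested. The largest constitutive change was Psmd11, a lid subunit, in heart, with 172, 125, 196 and 169 in LPS mice against 78.0, 77.2, 85.8 and 61.4 in PBS mice. Those groups did not overlap (difference 1.11 ± 0.14 SE, limma, adjusted p 3e-07). Psma5 in brown fat (1.09), Psmd11 in kidney (1.06) and Psmd7 in liver (1.00) were of similar size, and Psmd13, a lid subunit, was called in no tissue.

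By tissue, constitutive subunits called higher numbered 21 of 31 in colon, 20 in spleen, 19 in white fat, 17 in kidney, 15 in bone marrow, 14 in heart, 13 in liver, 12 in lung and in small intestine, and 11 in brown fat. Lymph node had 8, skin 6, muscle 5, and brain and thymus 0. Of all genes, 9.45% were called higher in colon and in skin, 8.04% in spleen, 7.49% in white fat, 16.2% in kidney, 10.6% in bone marrow, 9.83% in heart, 11.6% in liver, 11.7% in lung, 9.92% in small intestine and 9.09% in brown fat. The share was 9.97% in lymph node, 6.72% in muscle, 2.32% in brain and 9.7% in thymus. For calls in the other direction, of which the 31 subunits had 2, both in kidney, it was 7.76% in colon, 7.75% in spleen, 6.25% in white fat, 9.28% in brown fat, 5.76% in muscle, 8.83% in thymus and 21.9% in kidney. With edgeR on recovered counts, and with these 2 groups fitted alone, brain had 2 subunits called higher. In lung all 10 neutrophil markers were called higher, with sums of 4693 to 5129 in LPS and 480.1 to 532 in PBS mice, and Sftpc, Sftpb and Scgb1a1 summed to 49501 to 62079 in LPS and 79980.1 to 86850.4 in PBS mice. What part this had in the lung subunits, inducible ones included, was not tested. The skin count was 1 without mouse 3 or mouse 4, 2 without mouse 8 and 3 without mouse 5 or mouse 7, and the muscle count was 3 without any of mice 1, 3, 6 and 8. Leaving out the brown fat libraries of mice 7 and 8, which held the most muscle signal, brought brown fat to 6, an alternative chosen after seeing the data. With median-of-ratios scaling lymph node had 13. In kidney 2 were lower, Psmb7 and the lid subunit Psmd3, at 77.3 ± 4.75 in LPS and 105 ± 8.95 in PBS mice (-0.43, limma, adjusted p 0.0016).

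To set the 2 forms of the proteasome against each other, each inducible catalytic subunit was divided by the constitutive one it replaces, within each library. The ratios were taken on signal + 1. Because tags are captured differently for each gene, only the change of a ratio between groups is meaningful, not its level. With LPS the ratio rose in 28 of 45 tests, each at the smallest p that 4 against 4 mice allow. That p was 0.0286 in the exact two-sided permutation test, and 0.0459 after adjustment over the 45. All 28 share the adjusted value, which rises as fewer tests reach the smallest p. Leaving out 1 mouse brought their number to 23 to 26, at which all can miss the 0.05 threshold together. Psmb8 to Psmb5 rose in 11 tissues (median log2 difference 0.70), Psmb9 to Psmb6 in 9 (0.67) and Psmb10 to Psmb7 in 8 (0.78), and none fell at that p.

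In kidney the log2 ratios changed most: by 2.75 for Psmb10 to Psmb7, by 2.29 for Psmb9 to Psmb6 and by 2.11 for Psmb8 to Psmb5. As signal ratios these were 7.06 in LPS and 1.05 in PBS mice, 0.791 in LPS and 0.161 in PBS mice, and 1.40 in LPS and 0.325 in PBS mice. In spleen the same ratios differed by 0.02, -0.04 and -0.05, with exact permutation p of 0.943, 0.743 and 0.714 (4 mice each). The first of these rests on low values of Psmb7, at a mean of 9.27 signal in PBS spleens. Its log2 ratio had an SD of 0.46 in LPS and 0.52 in PBS spleens, so a modest change could have been missed. Psmb5 and Psmb6 were themselves called higher there. In small intestine they differed by -0.31, -0.17 and 0.31, none at the smallest p.

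**Figure D3:**
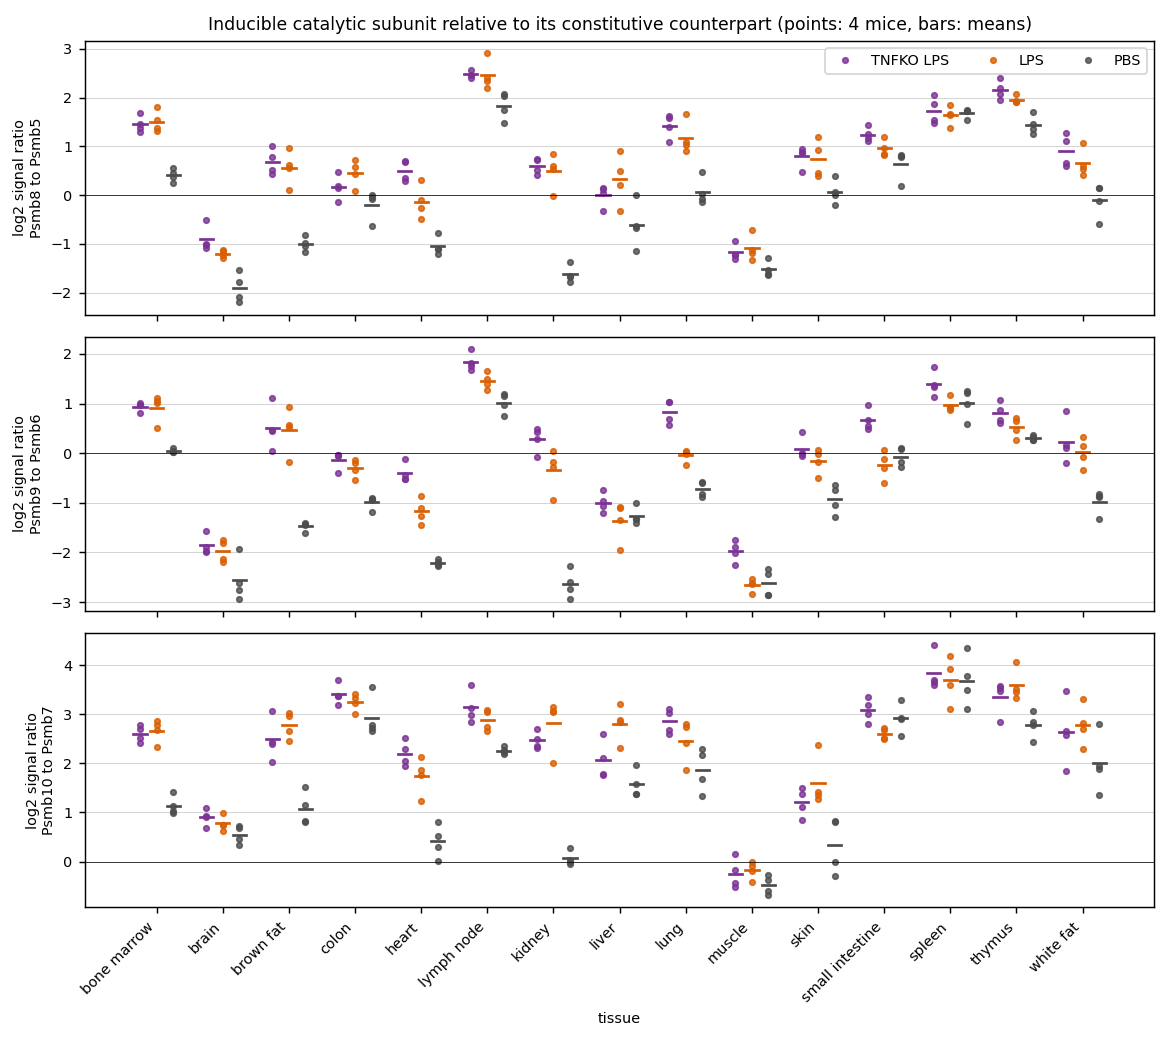
Log2 signal ratio of Psmb8 to Psmb5, Psmb9 to Psmb6 and Psmb10 to Psmb7 in each library of 15 tissues, for TNFKO LPS, LPS and PBS mice (points are mice, bars means of 4). In kidney the LPS points stand 2.11 to 2.75 above the PBS points on the log2 scale, and in spleen the 3 groups overlap.

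Of the other activators, Psme3, the nuclear PA28 gamma, was higher with LPS in colon, heart, kidney, liver and spleen and lower in bone marrow and thymus. In thymus it averaged 42.0 ± 8.62 in LPS and 72.7 ± 15.1 in PBS mice (difference -0.78, limma, adjusted p 0.00019), beside the fall in T cell markers given above. Psme4, the activator PA200, was higher in lymph node and lower in kidney (-0.52). Psme2b, a near copy of Psme2 on another chromosome, reached at most 40.0 signal, was at 0 in 14 of 180 libraries, and had its largest change in kidney, with 5.75 ± 1.26 in LPS and 1.77 ± 0.947 in PBS mice (1.32, limma, adjusted p 0.001). Its tags may not be separable from those of Psme2, so its values are uncertain.

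Psmf1, the inhibitor PI31, was higher in kidney (0.71) and white fat (0.88). The 4 core assembly chaperones gave 2 higher and 2 lower of 60 tests: Psmg4 rose in kidney and liver and Psmg1 fell in kidney and thymus. In kidney Psmg1 averaged 19.9 ± 5.77 in LPS and 35.2 ± 5.84 in PBS mice (-0.82, limma, adjusted p 0.00084). The 3 regulatory particle chaperones gave 3 higher and 3 lower of 45, with Psmd10 higher in liver (1.07) and skin and lower in small intestine, Psmd9 higher in skin, and Psmd5 lower in bone marrow (-0.56) and kidney (-0.36). Kidney, with 21.9% of all genes called lower, was the tissue with the most such calls. Over all genes and tissues 9.47% of tests were called higher and 10.4% lower, and neither chaperone group exceeded those shares.

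Genes that act before and after the proteasome were described from lists. For scale, 9.47% of all gene and tissue tests were called higher with LPS and 10.4% lower. Of 12 interferon-gamma pathway regulators, 97 of 180 tests were higher with LPS and 9 lower. Irf1 was higher in 14 tissues, and Stat2 and Nlrc5, the MHC class I transactivator, in 12 each. Of 11 peptide transport and MHC class I genes, 95 of 165 tests were higher and 18 lower, with Tap1 (median 1.49) and H2-D1 higher in 14 tissues and Tapbp and B2m in 13. The members against that trend were Calr, lower in 9 tissues and higher in 3, Canx, lower in 5, and Pdia3, lower in 3 and higher in 2, all folding factors of the endoplasmic reticulum.

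Of 8 ubiquitin genes, 50 of 120 tests were higher and 5 lower, led by Isg15, in 14 tissues with 1 lower, Ubd (FAT10, a modifier that targets proteins to the proteasome) in 11, Uba7, the activating enzyme of Isg15, in 8, and Ubb in 7. Of 15 other assembly and regulation genes, 42 of 225 tests were higher and 14 lower. Nfe2l2, a stress-response regulator, was higher in 9 tissues and lower in 2, the proteasome-bound thioredoxin-like Txnl1 was higher in 7, the assembly factor Pomp in 6, and Nfe2l1, a known activator of constitutive proteasome genes, in 4 with 1 lower.

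Between TNF-deficient and wild-type mice, both given LPS, Psmb9 was the subunit that differed most often. The LPS mice in this comparison are those already set against PBS mice, so the 2 comparisons are not independent. Inducible subunits were higher in TNFKO LPS than in LPS mice in 11 of 75 tests and lower in 0 (limma; 0 also with edgeR), with a median log2 difference of 0.12, where 3.24% of all tests were called higher and 2.32% lower. Of the 11 calls 8 were Psmb9, and Psme1 had none. The share of all genes called higher was 3.32% in heart, 13.2% in kidney, 5.96% in liver, 3.71% in lung, 1.72% in lymph node, 1.82% in muscle, 4.47% in small intestine and 2.56% in spleen, the tissues of these calls. It was 2.57% in bone marrow, 2.51% in colon, 1.7% in brown fat and 1.43% in skin, where no inducible subunit was called.

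Muscle and heart had the largest Psmb9 differences. In muscle its signal was 80.9, 71.4, 80.8 and 78.5 in TNFKO LPS mice, 44.8, 40.2, 42.0 and 43.0 in LPS mice, and 40.9, 40.6, 46.9 and 45.9 in PBS mice (TNFKO LPS minus LPS 0.86 ± 0.16 SE, limma, adjusted p 0.00077). In heart it was 154, 199.8, 156 and 189 in TNFKO LPS mice, 107, 84.3, 89.2 and 104 in LPS mice, and 48.4, 44.1, 42.9 and 47.3 in PBS mice (0.85 ± 0.12 SE, limma, adjusted p 3.2e-05). The TNFKO LPS and LPS groups did not overlap in either tissue, and in muscle the LPS and PBS groups did.

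In kidney Psmb9 was 248, 273, 195 and 232 in TNFKO LPS mice, against 147, 98.6, 147 and 157 in LPS mice (0.79, limma, adjusted p 0.00011). In lung it was 238, 216, 207 and 227 in TNFKO LPS mice, against 147, 90.8, 152 and 140 in LPS mice (0.77, limma, adjusted p 0.00096). In liver it was 133, 137, 119 and 141 in TNFKO LPS mice, against 79.0, 62.4, 98.8 and 112 in LPS mice (0.62, limma, adjusted p 0.011). Each of these pairs of groups stood apart. The lung neutrophil sum was 4387 to 7090.4 in TNFKO LPS and 4693 to 5129 in LPS mice, with 1 of 10 markers called higher, and its part was not tested. Liver is a tissue in which Psmb9 had not been called between LPS and PBS mice.

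Small intestine (0.64, limma, adjusted p 0.011), lymph node (0.47, 0.014) and spleen (0.45, 0.013) completed the 8, also without overlap between TNFKO LPS and LPS mice. The lymph node call was lost without mouse 7 (adjusted p 0.0602) or mouse 8 (0.0564), and the spleen call without mouse 7 (0.0653) or mouse 12 (0.0585). In lymph node and spleen lymphocyte markers moved the same way: 4 of 6 B cell markers were called higher in TNFKO LPS spleens, with sums of 1269.9 to 1487 in TNFKO LPS and 729 to 1277 in LPS mice, and 3 of 6 B cell and 3 of 8 T cell markers in lymph node. In spleen 4 of 10 neutrophil markers were also higher and 1 lower, and what part these shifts had was not tested. In muscle none of the 40 neutrophil, monocyte, T, B, NK and dendritic cell markers was called in either direction by limma.

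Psmb8, which lies on the other side of Tap1, was called in 1 tissue. In heart it averaged 169 ± 22.9 in TNFKO LPS and 120 ± 28.6 in LPS mice (0.51, limma, adjusted p 0.025), with overlap, and the call was lost without any of mice 6, 8, 10 and 12. In kidney, where Psmb9 differed by 0.79, Psmb8 was 241, 242, 219 and 248 in TNFKO LPS mice, against 243, 166, 278 and 248 in LPS mice (0.05, limma, adjusted p 0.86), and these groups overlapped. Tap1 was called in bone marrow alone, where it was lower (-0.59) beside 3.55% of all genes, with a range of -0.59 to 0.24 over tissues. Psmb10 was higher in lung (0.45, limma, adjusted p 0.039) and Psme2 in heart (0.55, limma, adjusted p 0.048), and leaving out single mice removed each of these calls. The inducible count of 11 was 7 without mouse 12.

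**Figure D4:**
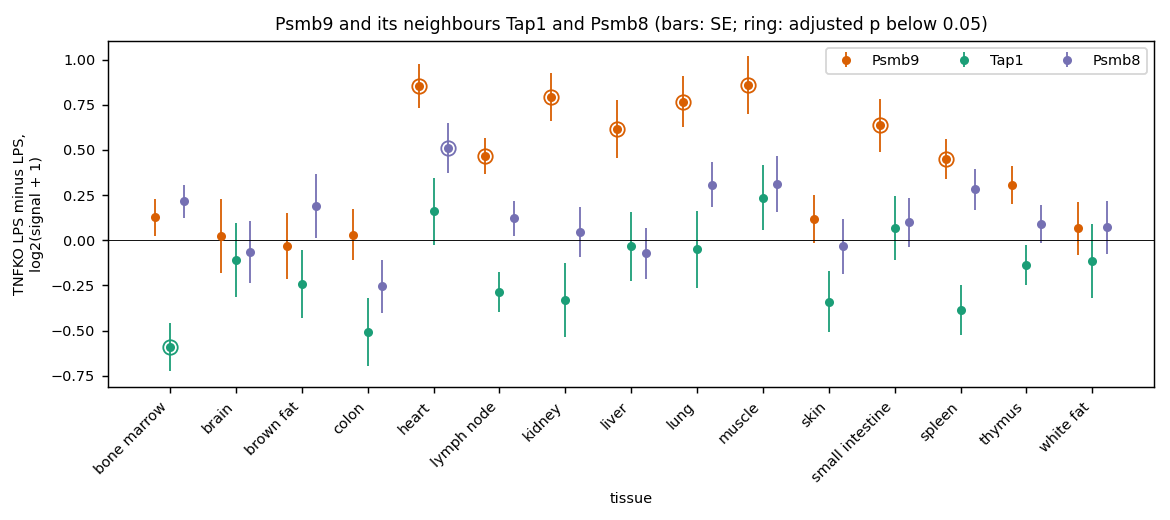
Difference between TNFKO LPS and LPS mice, in log2(signal + 1) with its SE, for Psmb9 and for Tap1 and Psmb8, its neighbours on chromosome 17, in 15 tissues (rings mark an adjusted p below 0.05). Psmb9 is ringed above 0 in 8 tissues, Psmb8 in heart, and Tap1 below 0 in bone marrow.

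A comparison of Psmb9 with Psmb8 within libraries, chosen after these values had been seen, used the same libraries. The log2 ratio of Psmb9 to Psmb8 was higher in TNFKO LPS than in LPS mice at the smallest possible p in 5 tissues, by 0.75 in kidney, 0.69 in liver, 0.54 in small intestine, 0.35 in lymph node and 0.34 in heart (exact two-sided permutation test, 0.0286; 0.0857 after adjustment over 15 tissues). It was above 0 in 12 of 15 tissues. Between LPS and PBS mice the ratio was lower at that p in 5 tissues, by -1.20 in liver, -0.63 in lung, -0.51 in small intestine, -0.43 in kidney and -0.42 in thymus. None of these passed the adjustment. Since Psmb9 lies on the chromosome that carries the altered Tnf allele, a sequence difference near that allele and an effect of absent TNF cannot be told apart.

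The ratio of each inducible catalytic subunit to its constitutive counterpart gave 7 of 45 tests at the smallest p between TNFKO LPS and LPS mice, all higher, and 0 after adjustment over the 45 (exact permutation test, 0.0286; adjusted 0.184). Of these, 5 were Psmb9 to Psmb6, with differences of 0.91 in small intestine, 0.87 in lung, 0.77 in heart, 0.68 in muscle and 0.38 in lymph node. This ratio was above 0 in all 15 tissues, between 0.02 and 0.91. Psmb8 to Psmb5 was higher in brain (0.30) and Psmb10 to Psmb7 in small intestine (0.49). The change with TNF deficiency differed between tissues for Psmb9 (limma moderated F, adjusted p 2.5e-06) and Psmb10 (0.0282) and was not shown to differ for the other 3, where the test called 25.6% of all genes.

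The constitutive subunits differed between TNFKO LPS and LPS mice in 2 tissues above all, and in opposite directions. Over 15 tissues 21 of 465 tests (4.52%) were higher and 14 (3.01%) lower, with a median of -0.02. Over all genes the shares were 3.24% and 2.32%. Muscle held 17 of the higher and small intestine 8 of the lower constitutive calls. In the joint fit, 22 of 31 constitutive subunits rose further in muscle than in the mean of the other 14 tissues (median difference 0.51), where 4.39% of all genes were called, and 6 moved less in small intestine (median -0.32), where 1.47% were.

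In muscle all 31 constitutive differences were above 0, from 0.12 to 0.83 with a median of 0.40, and 1.82% of all genes were called higher there. Psma1, of the alpha ring, had 352, 421, 317 and 323 signal in TNFKO LPS mice, 205, 219.6, 182 and 183 in LPS mice, and 194, 223, 167 and 166 in PBS mice (TNFKO LPS minus LPS 0.83, limma, adjusted p 4.1e-05). Psma5, also of the alpha ring, had 255, 263, 255 and 271 in TNFKO LPS mice, 119, 162, 147 and 164 in LPS mice, and 132, 144, 135 and 129 in PBS mice (0.82, limma, adjusted p 3.7e-05). For both genes TNFKO LPS mice were above LPS and PBS mice, which overlapped.

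The other muscle calls covered every role but the catalytic subunits. They were Psma2, Psma4 and Psma7 of the alpha ring, the structural Psmb1 (0.56), Psmb3 and Psmb4, the ATPases Psmc2 (0.65), Psmc4 and Psmc6 (0.62), and the non-ATPases Psmd4, Psmd6, Psmd8, Psmd11 (0.52), Psmd12 (0.54) and Psmd14. The chaperone Psmd5 was higher too, with 22.7, 18.1, 29.0 and 28.0 in TNFKO LPS mice, 10.4, 14.4, 9.89 and 14.8 in LPS mice, and 17.9, 24.8, 19.1 and 22.2 in PBS mice (0.93, limma, adjusted p 0.037). Its LPS mice lay below both other groups, and the call was lost without any of mice 5, 7, 9, 11 and 12. Psme4 rose as well (0.58, limma, adjusted p 0.0037). The muscle markers Acta1, Ckm and Myh4 summed to 81898 to 88818 in TNFKO LPS, 80616 to 93033 in LPS and 94807 to 109106 in PBS mice. The count of 17 was 9 without mouse 12, 10 without mouse 5 or mouse 10 and 11 without mouse 7.

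In small intestine all 31 constitutive differences were below 0, from -0.77 to -0.10 with a median of -0.27, and 2.65% of all genes were called lower there. Psmd1, a scaffold of the regulatory particle base, had 40.7, 49.97, 36.0 and 37.1 signal in TNFKO LPS mice, 64.4, 66.7, 87.0 and 63.3 in LPS mice, and 40.7, 56.7, 38.8 and 40.3 in PBS mice (TNFKO LPS minus LPS -0.77, limma, adjusted p 0.0029). The LPS mice stood above both other groups, which overlapped. Psmd12 (-0.63), Psmd11 (-0.58), Psmd14 (-0.53), Psma6 (-0.53), Psmb4 (-0.48), Psmd13 (-0.45) and Psmc4 (-0.42) were also lower.

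Markers of the tissue moved in these libraries. Fabp2, Lct and Defa24, of enterocytes and Paneth cells, summed to 31924 to 39391 in TNFKO LPS, 15799 to 27192 in LPS and 29273 to 39060.3 in PBS mice. The sum of 8 monocyte and macrophage markers ran from 624 to 657 in TNFKO LPS and from 455 to 565 in LPS mice. The part of these shifts in the constitutive subunits' difference was not tested. The count of 8 was 5 without mouse 9.

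**Figure D5:**
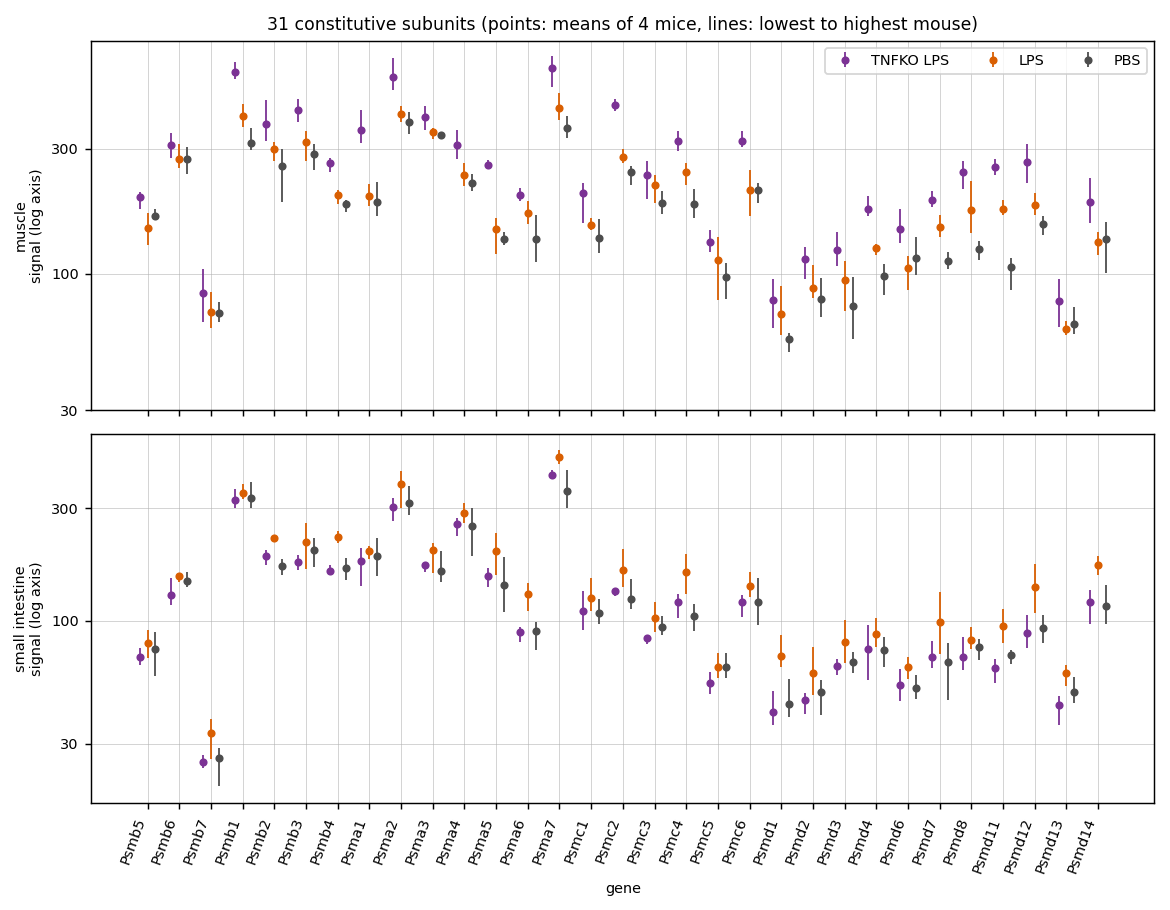
Signal of the 31 constitutive subunits in muscle and small intestine of TNFKO LPS, LPS and PBS mice (points are means of 4 mice, lines run from the lowest to the highest mouse). In muscle 17 subunits were called higher, and in small intestine 8 lower, in TNFKO LPS than in LPS mice.

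Elsewhere few constitutive subunits differed between TNFKO LPS and LPS mice. In kidney, where 13.2% of all genes were called higher and 6.82% lower, Psmb7 (0.55) and Psma1 (0.28) were higher and Psmd8 (-0.48) and Psmd11 (-0.36) lower. Psmb7 in kidney was 38.6, 35.6, 38.8 and 38.8 in TNFKO LPS mice, against 25.3, 29.5, 27.1 and 21.2 in LPS mice, without overlap. In liver Psma2 (-0.41), Psmd12 (-0.42) and Psmd8 (-0.40) were lower, and all 3 calls were lost without mouse 8, mouse 11 or mouse 12, while 1 subunit was called without mouse 5, 7 or 9. Psmc4 was lower in white fat (-0.51), and Psmc3 was higher in heart (0.38) and Psmc5 in bone marrow (0.43). Each of these calls was lost without at least 1 mouse. Of all genes, 280 of 13546 were called lower in white fat and 467 of 13598 in liver. Called higher were 442 of 13297 in heart and 334 of 12983 in bone marrow.

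Of the 11 other genes, 7 of 165 tests (4.24%) were higher and 1 (0.61%) lower. Over all genes and tissues these shares were 3.24% and 2.32%, so the group stood near or below them. The higher calls were Psmd5 and Psme4 in muscle, Psmd5 in bone marrow (0.58), and Psme4 (0.47) and Psmd10 (0.64) in heart. Psmg1 in kidney (0.77) and Psmg2 in small intestine (0.71) were also higher, and Psme3 was lower in kidney (-0.44). In kidney Psmg1 averaged 33.8 ± 4.21 in TNFKO LPS and 19.9 ± 5.77 in LPS mice.

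The pathway lists were read in this comparison too. Of the interferon-gamma pathway regulators, Irf1 was lower in TNFKO LPS than in LPS mice in 3 tissues, and Jak2 and Socs1 were lower in 2 each. Of 165 tests of peptide transport and MHC class I genes, 25 were higher and 4 lower, and 22 of the higher ones were Calr in 11, Pdia3 in 6 and Canx in 5 tissues. Ubiquitin genes gave 4 higher (3.33%) and 8 lower (6.67%) of 120, with Ubd lower in 3. The assembly and regulation genes gave 4 higher (1.78%) and 6 lower (2.67%) of 225. Over all genes and tissues 3.24% of tests were called higher and 2.32% lower. The higher count of peptide transport and MHC class I genes (15.2%) and the lower count of ubiquitin genes (6.67%) stood above those shares. The lower count of the former (2.42%), the higher count of the latter and both assembly and regulation counts stood near or below them.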

How the data were processed

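RNA of 15 tissues from 12 mice was sequenced from its 3′ end with a barcode and a 10 bp molecular identifier, per the labels' protocols. The labels do not say whether identifiers were collapsed. The authors deposited a signal per gene and library, in tables named for CPM, whose sums ran from 703690 to 1603067. The submitters' processing notes name FastQC, MultiQC, edgeR and mm10. No aligner is named in the sources used here, and no use of strand. All deposited signal values were whole multiples of 1 step per library (100.0% within 0.1 of a whole number), so a whole count was recovered for each gene, and these counts were used as an alternative. Libraries were not near-duplicates: the lowest chi-square per degree of freedom was 1.15 over 270 pairs of mice.

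Within a tissue, genes reaching a signal of 1 in 4 or more of the 12 libraries entered the test. It was limma's trend method (version 3.58.1, R 4.3.3) on log2(signal + 1), a scale that understates changes of low genes, with Benjamini-Hochberg adjustment over all genes of a tissue and a threshold of 0.05. Tissues were compared in a joint fit of 45 groups. Ratios were tested by exact permutation over 70 regroupings. The same mouse gave all 15 tissues, so mouse was tried as a block (consensus correlation 0.0159). Other alternatives were edgeR 4.0.16 on recovered counts, a pseudocount of 0.25, no filter, median-of-ratios scaling, fits of 2 groups and leaving out each mouse. Code was tested on simulated data.

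The members and lists were chosen with earlier results of these data known. Genes named with values were the inducible subunits and their counterparts, for each comparison and direction the 4 other members called in the most tissues and the 3 largest called changes, and up to 4 genes called in the most tissues of each pathway list with those called against it. Further genes were named after their values were seen. P-values measure the spread between these mice. Psmb9, Psmb8, Psmb10 and Psme1 overlap a gene on the opposite strand, and reads of such pairs may not be told apart. Some results for the pathway lists are not reported here.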

Additional observations from a re-analysis of the deposited data

Results flagged for a closer look

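Among 225 groups of 4 mice (5 inducible subunits, 15 tissues, 3 conditions), 12 held a mouse whose gap to the others exceeded Dixon's 95% critical share of the group's range. Chance gives such a gap in about 1 of 20 groups. For Psmb9 these were mouse 11 in TNFKO LPS colon, at 79.6 signal, with the others at 108 to 113, mouse 6 in LPS kidney, at 98.6 against 147 to 157, mouse 2 in PBS colon, at 51.3 against 58.2 to 59.2, and mouse 1 in PBS kidney, at 34.2 against 28.0 to 28.5. For Psmb10 it was mouse 2 in PBS bone marrow, at 64.5 against 50.05 to 51.9.

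For Psme1 they were mouse 10 in TNFKO LPS lung, at 186 with the others at 145 to 148, mouse 8 in LPS muscle, at 68.5 against 58.9 to 60.4, mouse 1 in PBS lymph node, at 139 against 124 to 125, and mouse 1 in PBS muscle, at 23.0 against 43.4 to 47.4. For Psme2 they were mouse 7 in LPS white fat, at 79.5 with the others at 62.5 to 64.6, mouse 1 in PBS heart, at 47.5 against 27.6 to 30.3, and mouse 4 in PBS white fat, at 32.7 against 45.7 to 48.0. PBS mouse 1 accounts for 4 of the 12.

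Tissues differed in the LPS change of all 5 inducible subunits (limma moderated F, adjusted p 2.5e-28 for Psmb9, 6.6e-27 for Psmb10, 6.1e-24 for Psmb8, 5.2e-15 for Psme1 and 1.1e-07 for Psme2) and of 27 of 31 constitutive ones. They differed in the TNFKO LPS minus LPS change of Psmb9 (2.5e-06), Psmb10 (0.0282) and 26 of 31 constitutive subunits.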

How the results depend on the processing

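Counts of calls over all 15 tissues kept to within 1.5 times their value under every alternative that kept all mice, with 1 exception: constitutive subunits lower with LPS were 1 instead of 2 with edgeR on recovered counts, with 2 groups fitted alone and with median-of-ratios scaling. Leaving out 1 mouse gave 53 to 60 inducible and 145 to 181 constitutive calls higher with LPS, 0 to 1 and 1 to 2 lower, and 14 to 20 and 6 to 9 for the other genes. For TNFKO LPS against LPS it gave 7 to 12 inducible, 10 to 20 constitutive and 5 to 8 other calls higher, and 0, 7 to 19 and 1 to 2 lower. Constitutive calls higher were 10 without mouse 12, 13 without mouse 5 and 12 without mouse 7, and lower ones 7 without mouse 9, 8 without mouse 7 or mouse 8 and 9 without mouse 12. Tissue differences in the LPS change held for 5 inducible and 22 to 27 constitutive subunits, and in the TNFKO change for 1 to 2 (1 without mouse 5, 8, 11 or 12) and 18 to 28. Single tissues against the other 14 gave 25 to 32 calls, ratios 23 to 26 with LPS and 4 to 7 with TNF deficiency (fewer without mouse 5 or mouse 8), and Psmb9 to Psmb8 3 to 5 with LPS and 2 to 6 with TNF deficiency. The replicate block (mouse) gave 5, 27 and 29 for the LPS change and 2 and 26 for the TNFKO change, against 5, 27, 28, 2 and 26 without it, and changed no call by over 1.5 times. Of 91 single gene tests, 71 were called whichever mouse was left out, 85 with 2 groups alone, and 0 reversed. The cause of the lost calls was not tested. Depth limits Psme2b (median 4.5 counts per library) and Psmg1 (22) most, and Psmb7 (median 37) held 4 counts in its lowest library.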
